A study of Homo sapiens with 27 samples.

Results

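The soluble nucleoplasmic fragments of NET47 and NET39 were compared directly in HT1080, a cell line from a human fibrosarcoma that stands in for fibroblasts. The comparison held 6 of the 27 expression arrays of the series, chosen by their sample titles: 3 of cells transfected with the soluble fragment of NET47 (NET47 soluble) and 3 of cells transfected with the soluble fragment of NET39 (NET39 soluble). All 48803 probes of the Illumina HumanHT-12 v3 bead array were tested, which covered 18665 named genes. Both fragments were fused to green fluorescent protein (GFP) and, according to the labels, which were followed, introduced by transient transfection. The study's methods speak of stable transfection for its array samples in general. A figure legend of the study also describes stable expression of the soluble fragments. No tissue or animal was involved, and all 6 arrays shared the parental line, the mode of expression and the GFP moiety. The other groups compared here were a GFP carrying a nuclear localisation signal (NLS-GFP, transient, n = 3) and the stable lines of full-length NET47 (n = 3) and full-length NET39 (n = 4). Cells with the soluble fragment of another protein, NET29 (transient, n = 3), its full-length line (n = 4) and untreated HT1080 cells (n = 4) entered the shared fit. They were otherwise used only in the view of the transient arrays and in alternative fits. The sources used here do not say how much of each fragment was made, what share of cells took it up, how long after transfection RNA was taken or, for these groups, whether replicates were separate cultures, although the methods speak of biological replicates for the arrays in general. The p-values therefore measure the spread between arrays, pooled over the 8 groups of all 27 arrays and not over the 6 compared arrays alone.

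Nuclear envelope transmembrane proteins (NETs) sit in the double membrane around the nucleus. Some are made in only a few tissues and, as full-length proteins, can bring chromosomes to the nuclear edge. NET47 is the product of TM7SF2, a member of the sterol reductase family, which acts in cholesterol synthesis, and it is made preferentially in liver. NET39 is the product of PLPP7 and is made preferentially in muscle. A soluble fragment holds the part that faces the nucleoplasm but has lost the membrane spans, so it offers any binding surface for nuclear proteins without anchorage at the envelope. Setting the fragments against each other asked how far cells given one fragment differed from cells given the other.

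Signal was similar in both groups, but more genes were detected with the NET47 fragment. The median bead intensity of an array was 69.6 to 71.5 in NET47 soluble cells and 66.4 to 73.5 in NET39 soluble cells. Between 10470 and 10837 genes per array were above background in NET47 soluble cells, against 9824 to 9977 in NET39 soluble cells, where background was the 95th percentile of 598 probes for gene families expected to be silent. The part of this gap in the results was not tested. Arrays correlated at 0.991 to 0.995 within NET47 soluble, at 0.996 within NET39 soluble and at 0.980 to 0.989 between the groups. On the first principal component of the 12 transient arrays (35.3% of the variance), NET47 soluble replicates 1, 2 and 3 scored 20.5, 18.9 and 11.4. The NET39 soluble arrays scored -10.4 to -5.43 there. On the second component (20.8%), NET47 soluble replicate 3 scored 12.7 and NLS-GFP replicate 3 scored 11.9. Both lay nearer there to the NET39 soluble arrays (8.43 to 11.1) than to NET47 soluble replicates 1 and 2 (-4.12 and -0.84). Of 12 mesenchymal markers 10 were above background on all 6 arrays and THY1 was on none, while 7 of 11 epithelial, 4 of 10 blood, 15 of 22 hepatocyte and 16 of 23 skeletal muscle genes were on none. No marker list had a member past the threshold between the fragments.

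The probe for TM7SF2 read 6.77, 6.74 and 6.59 in NET47 soluble cells and 6.46, 6.52 and 6.42 in NET39 soluble cells (normalised log2 intensity, the unit of all levels here). The difference of 0.23 ± 0.11 (log2 fold change ± SE, NET47 soluble over NET39 soluble, the direction of every fold change below) did not pass (adjusted p = 0.429). In the line with full-length NET47 the same probe read 12.59, 12.55 and 12.35. PLPP7 read 6.17, 6.29 and 6.10 in NET47 soluble cells and 6.23, 6.16 and 5.99 in NET39 soluble cells (0.06 ± 0.08, adjusted p = 0.866), and it was above background on no array of either NET39 group. Neither probe therefore showed the fragment it should mark. The sources used here do not place the probes relative to the fragments, so these readings do not check the labels of the 6 arrays.

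The cells differed at a small share of their genes. Past an adjusted p of 0.05 and a log2 fold change of 0.5 in either direction there were 346 genes, 1.85% of all tested, of which 160 were higher (0.857%) and 186 lower (0.997%) in NET47 soluble cells. Among the 12018 genes above background on at least 3 arrays of the series, the 346 made up 2.88%. The lower genes moved further: 49 fell more than 2-fold and 9 more than 4-fold, against 22 and 1 among the higher genes. All 346 had groups whose arrays did not overlap, as did 24.7% of all genes. The median log2 fold change of all genes was 0.00, and the typical error of a gene above background was 0.12 (median SE). Over the 346 genes, which these arrays helped to pick, NET47 soluble replicates 1, 2 and 3 stood at a median 1.06, 1.00 and 0.93 of the group difference. The balance of the 2 directions depended on scaling: when arrays were scaled to a common median instead of quantile normalised, 225 genes were higher and 38 lower, so that lower genes made up 14.4% in place of 53.8%, and the median of all genes stood at 0.11. The total was 206 without NET47 soluble replicate 1 and 216 without NET39 soluble replicate 1. Of the 346, 14 lower genes were above background on no NET47 soluble array and 12 higher genes on no NET39 soluble array.

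**Figure D1:**
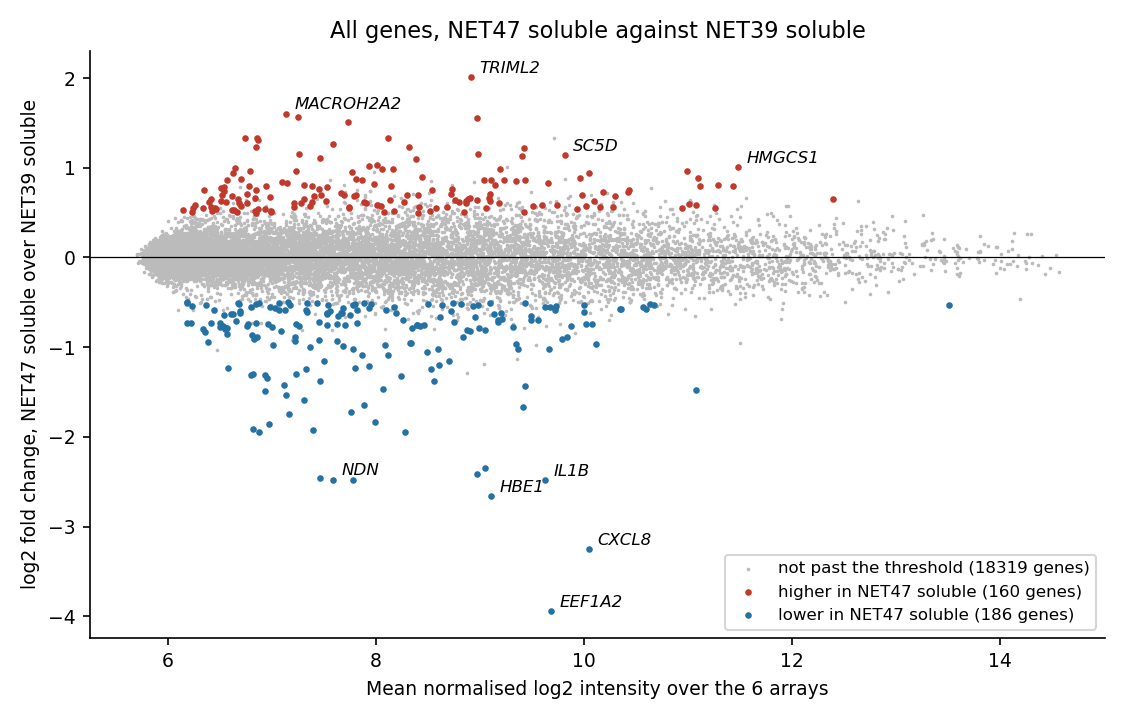
Each point is a gene, with its mean normalised log2 intensity over the 6 arrays on the x axis and the log2 fold change of NET47 soluble over NET39 soluble on the y axis. The 160 higher genes reach 2.01 (TRIML2) and the 186 lower genes reach -3.94 (EEF1A2), over the whole range of intensities.

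The largest difference was in EEF1A2, the isoform of translation elongation factor 1 alpha normally used by muscle and neurons. It read 7.56, 7.91 and 7.67 in NET47 soluble cells against 11.69, 11.72 and 11.56 in NET39 soluble cells, a 15.4-fold fall (-3.94 ± 0.18, adjusted p = 6.71e-13). NET39 soluble cells were near the NLS-GFP mean of 12.12, and the gap lay on the NET47 side. NDN, which encodes the imprinted MAGE-family protein necdin, showed the reverse arrangement. It read 6.32, 6.35 and 6.37 in NET47 soluble cells and 8.92, 8.76 and 8.79 in NET39 soluble cells (-2.48 ± 0.11, adjusted p = 6.71e-13), while NLS-GFP cells averaged 6.43. NDN thus stood apart in the NET39 soluble arrays.

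Other genes among the 15 largest falls encode secreted or membrane proteins. MDK, the heparin-binding growth factor midkine, read 6.19, 6.40 and 6.12 in NET47 soluble cells against 8.90, 8.55 and 8.62 in NET39 soluble cells (-2.46 ± 0.14, adjusted p = 3.46e-11). SBSN, the epidermal secreted protein suprabasin, read 6.32, 6.37 and 6.61 against 8.49, 8.30 and 8.28, and NLS-GFP cells (6.90) were closer to NET47 soluble cells. FAM20C, the Golgi kinase that phosphorylates secreted proteins, read 7.18, 7.35 and 6.70 in NET47 soluble cells and 8.99, 8.90 and 8.84 in NET39 soluble cells. ATP9A, a P4-type ATPase of endosomal membranes, was lower by a similar step (-1.95 ± 0.18, adjusted p = 1.83e-07). In all 4 of these genes every NET47 soluble array lay at least 1 unit below every NET39 soluble array. Several MDK and FAM20C probes disagreed in size: the other 5 MDK probes and the second FAM20C probe did not pass, the MDK ones at or near background.

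FABP5, a carrier of fatty acids in the cytosol, read 7.81, 7.82 and 7.98 in NET47 soluble cells and 10.17, 10.21 and 10.28 in NET39 soluble cells (-2.35 ± 0.17, adjusted p = 2.85e-09), although its other 2 probes, near background, did not pass. TCEAL9, of a family related to elongation factor TFIIS, fell by 2.41 ± 0.39 on the log2 scale (adjusted p = 0.000848). SERPINB1, an inhibitor of neutrophil proteases, was above background on none of the NET47 soluble arrays (6.003, 5.93 and 5.77) and on all of the NET39 soluble arrays (7.87, 7.87 and 7.80). It was at least 3.19-fold lower, measured against the background level (adjusted p = 3.5e-08). SCIN, the actin-severing protein scinderin, was likewise at least 3.03-fold lower (adjusted p = 0.000129). SERPINB1 and SCIN were thus detected on all arrays of the NET39 fragment and on none of the NET47 fragment.

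The largest rise was in TRIML2, a tripartite-motif-like gene. It read 9.88, 9.93 and 9.94 in NET47 soluble cells and 7.97, 7.90 and 7.85 in NET39 soluble cells, a 4.02-fold difference (2.01 ± 0.22, adjusted p = 3.9e-06), with NLS-GFP cells between them at 8.72. MACROH2A2, a variant of histone H2A found on silent chromatin, read 7.95, 8.10 and 7.76 in NET47 soluble cells against 6.33, 6.30 and 6.37 in NET39 soluble cells (1.60 ± 0.14, adjusted p = 1.83e-07). In both genes every NET47 soluble array was above every NET39 soluble array. COCH, the extracellular protein cochlin, was above background on all NET47 soluble arrays (7.65, 7.34 and 7.24) and on no NET39 soluble array (6.06, 6.08 and 6.10), at least 2.25-fold higher (adjusted p = 1.3e-07).

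Lipid and steroid enzymes were found among the 15 largest rises. LIPG, the endothelial lipase that acts on high-density lipoprotein, read 7.93, 8.03 and 8.15 in NET47 soluble cells against 6.63, 6.24 and 6.55 in NET39 soluble cells (1.56 ± 0.30, adjusted p = 0.00447), although its second probe (0.94, adjusted p = 0.0623) did not pass. HSD11B1, which turns cortisone into active cortisol, read 10.32, 9.98 and 9.82 against 8.85, 8.76 and 8.83 (1.22 ± 0.17, adjusted p = 7.53e-05). ABCA1, the transporter that moves cholesterol out of cells, read 9.80, 9.54 and 9.33 in NET47 soluble cells and 8.33, 8.39 and 8.49 in NET39 soluble cells (1.16 ± 0.20, adjusted p = 0.0021). NLS-GFP cells lay between the fragments for HSD11B1 (9.56) and ABCA1 (9.15) and with NET39 soluble cells for LIPG (6.55).

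The remaining large rises were in genes of varied function. CSPG4, the NG2 proteoglycan, read 7.54, 7.42 and 7.61 in NET47 soluble cells and 6.34, 6.18 and 6.05 in NET39 soluble cells (1.33 ± 0.14, adjusted p = 1.34e-06). VANGL2, a core protein of planar cell polarity, rose by 1.31 ± 0.17, the immunoglobulin-superfamily gene IGSF5 by 1.23 ± 0.13, the secreted leucine-rich protein LRRC17 by 1.56 ± 0.20 and dermokine (DMKN) by 1.33 ± 0.16, each with an adjusted p of 4.56e-05 or less. The calcium sensor NCALD rose by 1.27 ± 0.11 (adjusted p = 1.83e-07), and the neuropeptide gene NMB by 1.15 ± 0.22 (adjusted p = 0.00362). In GRAMD2B and in NOX4, an NADPH oxidase, NET47 soluble replicate 3 was nearest to the other group: GRAMD2B read 8.89, 8.79 and 7.77 against 6.94, 6.996 and 6.98, and NOX4 read 9.39, 9.13 and 8.28 against 7.65, 7.65 and 7.81. NOX4 (1.23 ± 0.25, adjusted p = 0.00777) no longer passed without NET47 soluble replicate 1 (adjusted p = 0.0988) or replicate 2 (adjusted p = 0.0616).

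**Figure D2:**
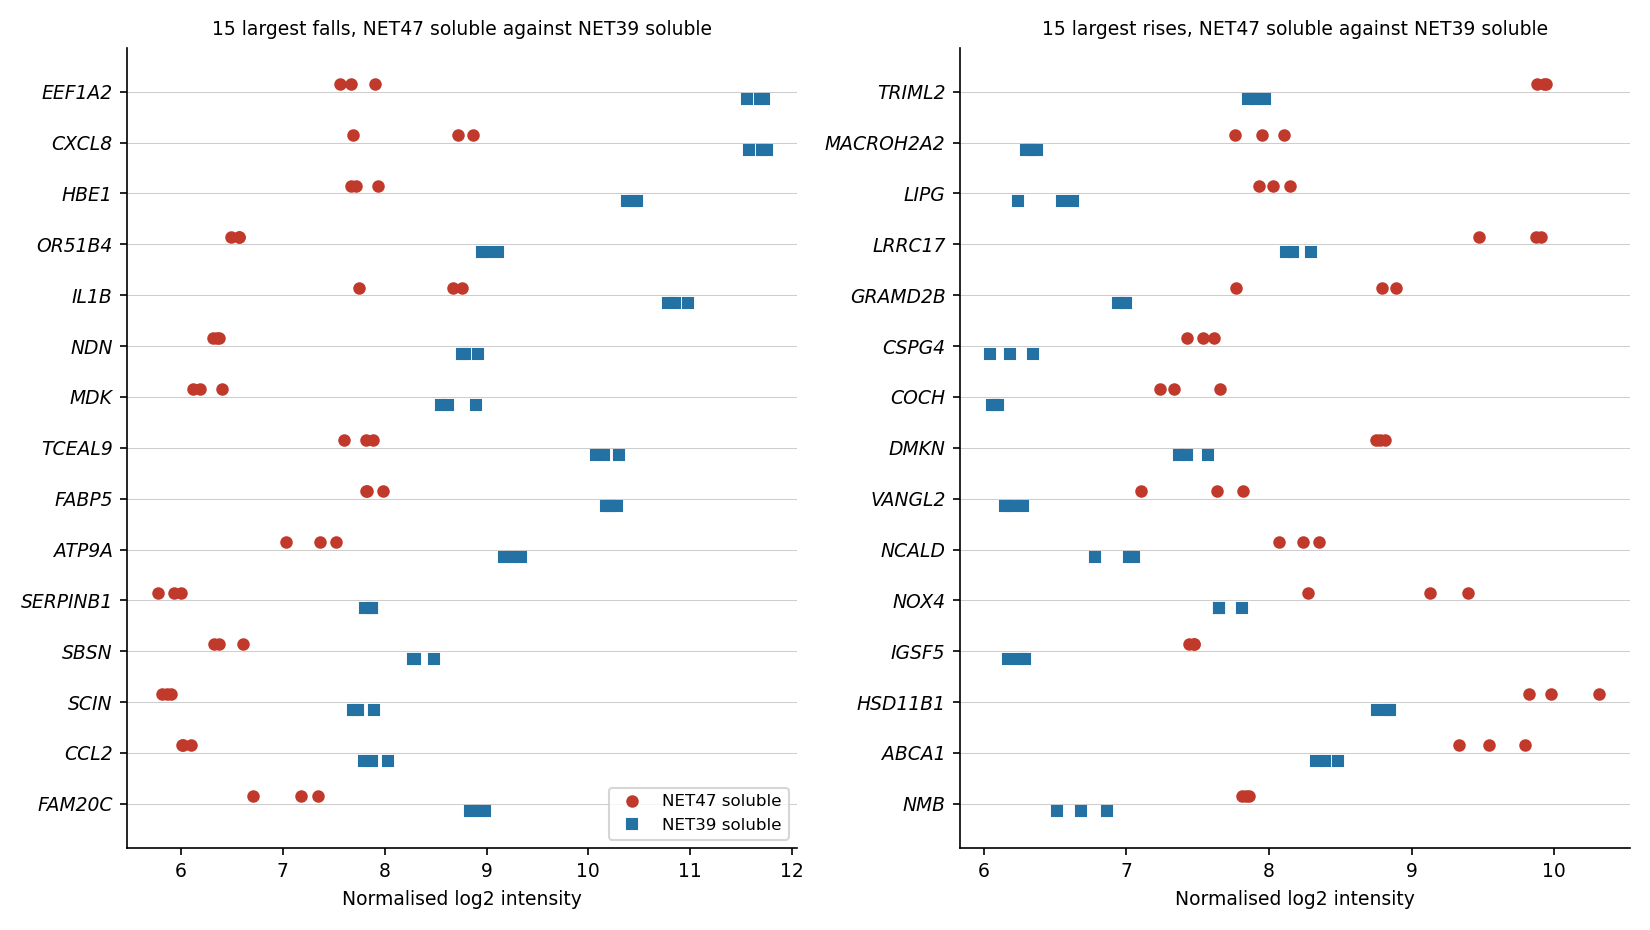
Normalised log2 intensity (x axis) of the 15 largest falls (left) and 15 largest rises (right), with 1 point per array, NET47 soluble as circles above NET39 soluble as squares. The groups do not overlap in any of the 30 genes, as the rule for naming them required. In CXCL8, IL1B, GRAMD2B and NOX4 the lowest circle is NET47 soluble replicate 3.

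The genes of cholesterol synthesis, the pathway in which the sterol reductase family of TM7SF2 acts, were mostly higher with the NET47 fragment. Of 18 measured members 6 rose and 0 fell, 33.3% against 1.85% of all genes, and 16 of 18 had a positive log2 fold change. The median over the list was 0.60, against 0.00 over all genes. HMGCS1, which makes the HMG-CoA that feeds the pathway, read 12.08, 11.998 and 11.89 in NET47 soluble cells and 10.92, 11.02 and 11.003 in NET39 soluble cells (1.01 ± 0.21, adjusted p = 0.0102). Among the late steps, SC5D, the sterol C5-desaturase, read 10.61, 10.48 and 10.07 against 9.24, 9.24 and 9.27 (1.14 ± 0.23, adjusted p = 0.00598). MSMO1, the C4-methylsterol oxidase, read 11.60, 11.60 and 11.89 in NET47 soluble cells and 10.79, 11.02 and 10.87 in NET39 soluble cells (0.80 ± 0.12, adjusted p = 0.000428). In each of these 3 genes every array with the NET47 fragment was above every array with the NET39 fragment.

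The other 3 called members covered the middle of the pathway. IDI1, the isopentenyl-diphosphate isomerase, read 8.94, 8.60 and 8.73 in NET47 soluble cells and 7.99, 8.18 and 8.001 in NET39 soluble cells (0.70 ± 0.15, adjusted p = 0.0102). SQLE, the squalene epoxidase, rose by 0.60 ± 0.11 (adjusted p = 0.00359), and CYP51A1, the lanosterol demethylase, by 0.61 ± 0.15 (adjusted p = 0.0281). MVD, the mevalonate decarboxylase, lay just outside the limit (0.70 ± 0.18, adjusted p = 0.0502). Of the members that did not pass, INSIG1, which holds back the sterol-sensing machinery, and LSS, the lanosterol synthase, each stood at 0.62, and PMVK had the lowest value, -0.27. Against NLS-GFP the list's median was 0.46 for NET47 soluble and -0.08 for NET39 soluble, 2 comparisons that share the NLS-GFP arrays. The call rested on particular arrays: 2 members passed without NET47 soluble replicate 1, when HMGCS1, SC5D, IDI1 and CYP51A1 were lost (adjusted p 0.0682, 0.0607, 0.103 and 0.122), and 3 passed without NET39 soluble replicate 1, while the list median stayed between 0.53 and 0.61 in the 6 fits that left out 1 array. HMGCS1, CYP51A1 and MVD were named after their values were seen.

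Promoters of this pathway are known to carry CCAAT boxes, the site of the factor NF-Y, which works beside the sterol-sensing SREBP factors. The 250 bases before the start are printed for the 3 members that rose most, as annotated by RefSeq on GRCh38.p14, with every CCAAT on either strand in capitals (CCAAT, or ATTGG where it lies on the opposite strand).
HMGCS1, chr5:43313413-43313662, minus strand: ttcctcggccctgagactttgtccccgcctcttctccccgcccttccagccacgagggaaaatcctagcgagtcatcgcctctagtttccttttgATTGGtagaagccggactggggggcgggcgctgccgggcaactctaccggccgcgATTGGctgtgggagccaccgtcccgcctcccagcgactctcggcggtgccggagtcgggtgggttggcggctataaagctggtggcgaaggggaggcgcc
MSMO1, chr4:165327419-165327668, plus strand: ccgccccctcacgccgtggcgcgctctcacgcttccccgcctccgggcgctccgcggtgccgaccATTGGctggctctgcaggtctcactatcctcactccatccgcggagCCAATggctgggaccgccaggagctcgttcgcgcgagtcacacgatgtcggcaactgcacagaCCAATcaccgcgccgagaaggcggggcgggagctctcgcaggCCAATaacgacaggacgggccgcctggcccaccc
SC5D, chr11:121292521-121292770, plus strand: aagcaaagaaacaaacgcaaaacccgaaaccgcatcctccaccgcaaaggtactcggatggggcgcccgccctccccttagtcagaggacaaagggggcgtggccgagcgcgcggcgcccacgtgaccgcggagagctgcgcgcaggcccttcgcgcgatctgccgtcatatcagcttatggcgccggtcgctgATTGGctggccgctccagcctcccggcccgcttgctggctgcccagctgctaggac
The counts were 2, 4 and 1, and the window of a second annotated HMGCS1 start held 0. A match is a description of letters and does not show that a factor binds. Over the list, 17 of 18 measured members had at least 1 annotated window, and 15 of these 17 held CCAAT in at least 1, against 37.0% of all 27305 genes in the table. Counted by window, it was 17 of 22, against 32.0% of 35116. Among the called members with a window it was 4 of 5 genes and 6 of 9 windows. The motif was chosen with these promoters in view, and no test was made of the shares.

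In the list of inflammatory cytokines and NF-kappaB targets 4 of 22 members were lower and 1 was higher, 22.7% against 1.85% of all genes, while 17 did not pass and the median was -0.09. CXCL8, the neutrophil chemoattractant interleukin-8, read 8.86, 8.72 and 7.69 in NET47 soluble cells and 11.58, 11.70 and 11.75 in NET39 soluble cells, 9.54-fold lower (-3.25 ± 0.43, adjusted p = 6.06e-05), and its second probe also fell (-3.14). IL1B, interleukin-1 beta, read 8.67, 8.76 and 7.75 against 10.98, 10.85 and 10.78 (-2.48 ± 0.31, adjusted p = 2.15e-05). For both, NET47 soluble replicate 3 was the lowest array and the NET39 soluble arrays lay close together. CCL2, the monocyte chemoattractant, was above background on no NET47 soluble array (6.01, 6.02 and 6.10) and on every NET39 soluble array (7.87, 7.80 and 8.03), at least 3.31-fold lower (adjusted p = 1.93e-06). IL11, a gp130 cytokine, read 7.39, 7.19 and 7.39 in NET47 soluble cells and 8.59, 8.28 and 8.37 in NET39 soluble cells (-1.09 ± 0.21, adjusted p = 0.00456).

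The exception was CCL20, a chemokine for CCR6-bearing lymphocytes. It read 6.87, 6.54 and 6.77 in NET47 soluble cells and, above background on none, 6.12, 6.23 and 6.22 in NET39 soluble cells, at least 1.4-fold higher (adjusted p = 0.00529, and 0.063 without NET47 soluble replicate 1). IL24, outside the list, fell by 1.46 ± 0.22 (adjusted p = 0.00023). CCL20 and IL24 were named after their values were seen. Other genes of the list did not pass: NFKBIA, the inhibitor of NF-kappaB, stood at -0.56 (adjusted p = 0.18), PTGS2, the inducible cyclooxygenase, at -0.80 (adjusted p = 0.144), and IL6, whose groups overlapped, at 0.21. CXCL1, CXCL2, CXCL3, CXCL5, TNF, ICAM1 and CSF3 were above background on none of the 6 arrays. Under median scaling IL11 and IL24 were no longer called.

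**Figure D3:**
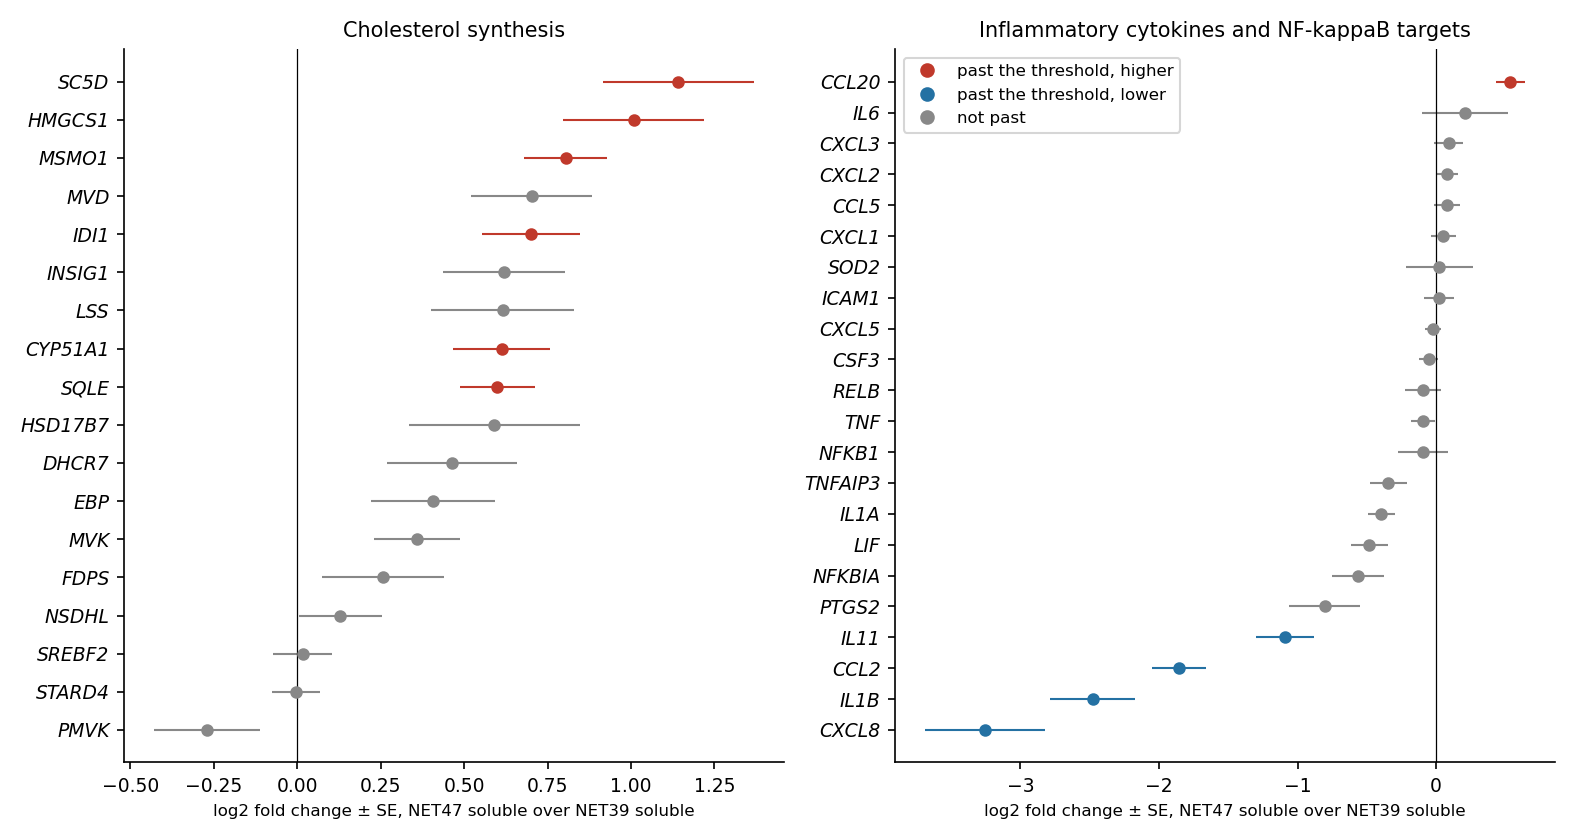
Log2 fold change of NET47 soluble over NET39 soluble with its SE (x axis) for each measured member of the cholesterol synthesis list (left, 18 genes) and the inflammatory list (right, 22 genes), sorted by value and coloured by call. The 6 called cholesterol genes lie between 0.60 and 1.14, and the 4 called lower inflammatory genes between -3.25 and -1.09. CCL2 and CCL20, not above background in 1 of the groups, are drawn at their fitted values.

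The promoter of CXCL8 is printed because its 2 best known control sites lie close to the start, an AP-1 site and a kappaB site, by which inflammatory signals switch it on. Capitals mark matches to TGANTCA and to GGNNNTTCC on either strand, 1 each, which do not overlap.
CXCL8, chr4:73740319-73740568, plus strand: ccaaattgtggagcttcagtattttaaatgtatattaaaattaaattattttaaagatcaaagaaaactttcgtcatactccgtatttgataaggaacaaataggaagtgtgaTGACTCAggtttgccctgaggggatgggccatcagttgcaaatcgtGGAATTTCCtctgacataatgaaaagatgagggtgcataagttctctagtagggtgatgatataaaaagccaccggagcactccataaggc
TGANTCA occurred in 6.57% and GGNNNTTCC in 17.1% of the 35116 windows of this length. By gene, TGANTCA was in 3 of the 17 measured members of the list with a window, against 8.06% of all 27305 genes, and GGNNNTTCC was in 11 of the 17, against 20.2%. Among the 4 called members with a window, each motif was in 2, and the window of IL1B held neither. GGNNNTTCC was also in 3 of the 5 called cholesterol synthesis genes with a window. No test was made of these shares.

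A run of 6 neighbouring genes on chromosome 11 was lower with the NET47 fragment. It was the longest of 9 runs of adjacent measured genes called in the same direction, the other 8 being pairs. It held the 2 fetal globin genes, the embryonic globin gene HBE1 and 3 of the olfactory receptor genes that flank the beta-globin cluster, which are silent in most tissues other than blood precursors or the nose. HBE1 read 7.72, 7.94 and 7.67 in NET47 soluble cells and 10.45, 10.48 and 10.38 in NET39 soluble cells (-2.66 ± 0.17, adjusted p = 7.83e-10). OR51B4 read 6.49, 6.57 and 6.57 against 8.95, 9.003 and 9.11 (-2.48 ± 0.12, adjusted p = 3.19e-12). OR51B5 read 6.25, 6.17 and 6.08 in NET47 soluble cells and 7.32, 7.49 and 7.59 in NET39 soluble cells (-1.30 ± 0.09, adjusted p = 1.27e-09). The separation exceeded 1 unit in each of these 3 genes.

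The other genes of the run, HBG2, HBG1 and OR51B2, had low levels. HBG2 (-0.78 ± 0.12) and HBG1, at least 1.52-fold lower (adjusted p = 0.000596), are near-identical copies whose signals the probes may share. OR51B2 was above background on no NET47 soluble array (5.81, 5.83 and 5.82) and on all NET39 soluble arrays (6.58, 6.55 and 6.51). HBB and HBD, the adult genes on one side, were above background on none of the 6 arrays, and on the other side OR51B6, OR51M1 and OR51Q1 were not either, while OR51I1 stood at -0.51 (adjusted p = 0.0536). Against NLS-GFP, HBE1 stood at -2.51 in NET47 soluble and 0.15 in NET39 soluble cells, and OR51B4 at -2.17 and 0.31. In the full-length lines HBE1 did not differ past the threshold (-0.25, adjusted p = 0.81), and OR51B4 was lower in NET47 full-length than in NET39 full-length by 0.62 (adjusted p = 0.0021). Under median scaling HBG1 and HBG2 were no longer called (adjusted p = 0.0557 and 0.106). OR51B2 and OR51B5 were named after their values were seen.

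**Figure D4:**
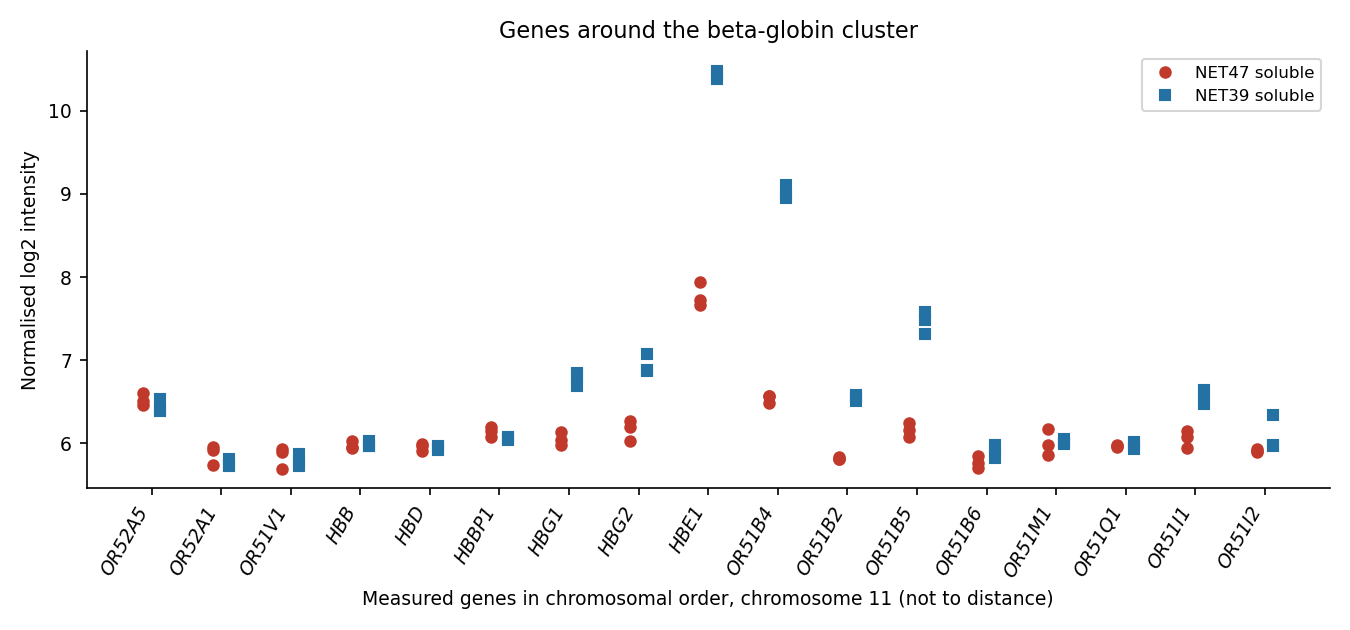
Normalised log2 intensity (y axis) on each of the 6 arrays for 17 measured genes of chromosome 11 in chromosomal order (x axis, spacing not to distance), NET47 soluble as circles left of NET39 soluble as squares. The groups part from HBG1 to OR51B5, most in HBE1 and OR51B4, and lie close together at HBB, HBD and HBBP1 on one side and at OR51B6, OR51M1 and OR51Q1 on the other.

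Among other neighbours, TNFSF9 and CD70, ligands of the tumour necrosis factor family that stimulate T cells, lie side by side on chromosome 19 and rose together. TNFSF9 read 9.60, 9.61 and 9.85 in NET47 soluble cells against 8.90, 8.62 and 8.59 in NET39 soluble cells (0.98 ± 0.18, adjusted p = 0.00345). CD70 read 11.72, 11.47 and 11.25 against 10.62, 10.56 and 10.35 (0.96 ± 0.18, adjusted p = 0.00429, and 0.0531 without NET47 soluble replicate 1). On chromosome 15, where NDN fell, the imprinted gene SNRPN rose by 0.87 ± 0.15 (adjusted p = 0.00137), and the MAGE-family gene MAGED1 on the X chromosome rose by 0.89 ± 0.14 (adjusted p = 0.000409). These 4 genes were named after their values were seen. By chromosome, the share of genes called ran from 1.06% on chromosome 16 to 3.62% on chromosome 15 (20 of 553 genes, 14 of them lower). Chromosome 5 had 2.01% and chromosome 13 had 2.19%.

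Few members of the other gene lists passed. In the interferon response 1 of 33 rose and 1 fell, against 1.85% called among all genes: OAS2, an activator of RNase L, read 7.54, 7.60 and 7.41 in NET47 soluble cells and 6.66, 6.65 and 6.70 in NET39 soluble cells (0.85 ± 0.15, adjusted p = 0.00172), and the antiviral GTPase MX1 read 7.18, 7.36 and 7.42 against 8.56, 8.56 and 8.50 (-1.21 ± 0.13, adjusted p = 3.43e-06). The other 3 OAS2 probes did not pass. Of 32 extracellular matrix genes 2 fell, THBS2, a matricellular thrombospondin (-1.16 ± 0.20, adjusted p = 0.00153), and LOX, the collagen cross-linking enzyme (-0.52 ± 0.10, adjusted p = 0.00721), and the median was 0.00. LOX was lost without NET47 soluble replicate 1 (adjusted p = 0.0608) and without NET39 soluble replicate 2 (-0.48). Of 19 cancer-testis genes 2 fell. MAGEA1 read 6.23, 6.15 and 6.51 in NET47 soluble cells and 8.12, 7.99 and 8.01 in NET39 soluble cells (-1.75 ± 0.20, adjusted p = 6.32e-06), and PAGE1 fell by 0.92 ± 0.16 (adjusted p = 0.00172).

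Among all genes 0.857% were called higher and 0.997% lower. Of 20 p53 targets 2 rose, TP53INP1, an autophagy and stress gene (0.86 ± 0.15, adjusted p = 0.00179), and SESN1, an inhibitor of mTORC1 signalling (0.50 ± 0.11, adjusted p = 0.0134), with a list median of 0.19. Of 28 DNA replication genes 2 fell, CDC45, a part of the replicative helicase (-0.52 ± 0.12, adjusted p = 0.0151), and cyclin E1, CCNE1 (-0.58 ± 0.15, adjusted p = 0.0468), with a list median of -0.26 that was 0.14 under median scaling. Among histones, H2BC5 (0.59 ± 0.12) and H2BC21 (0.80 ± 0.20) rose and H4C3 fell by 0.53 ± 0.11, of 48 measured. The immediate early phosphatase gene DUSP1 fell by 0.89 ± 0.17 (adjusted p = 0.00378), whereas DUSP5, a nuclear phosphatase of ERK, rose by 0.80 ± 0.19 (adjusted p = 0.0324). Single members fell in the heat shock, glycolysis, neuronal, mitosis and lysosome lists, ENO2 being in both the glycolysis and the neuronal list. They were the heat shock gene HSPA1A (-1.02 ± 0.26), the glycolytic enzyme ENO2 (-0.62 ± 0.16), the mitotic kinase AURKB (-0.55 ± 0.14) and the lysosomal channel MCOLN1 (-0.51 ± 0.12). CYBRD1, an iron reductase, rose by 0.75 ± 0.14 (adjusted p = 0.00337). It came from a list of liver genes that the study named as lowered by full-length NET39, in which it was the member called of 4. Of the 7 liver genes that the study named as raised by full-length NET47, 0 passed, with a median of 0.03.

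Many of the smaller differences lay near the threshold and lost their call in fits that left out 1 array, mostly at a like fold change: over those 6 fits ENO2 ran from -0.65 to -0.57, CCNE1 from -0.64 to -0.51 and DUSP5 from 0.70 to 0.91. SESN1 was lost without NET47 soluble replicate 1 or NET39 soluble replicate 1 or 3 (adjusted p up to 0.103), CDC45 without NET47 soluble replicate 1 or 3 or NET39 soluble replicate 2 (up to 0.114), H4C3 without NET47 soluble replicate 3 or NET39 soluble replicate 1 (up to 0.0584) and H2BC5 without NET47 soluble replicate 1 or NET39 soluble replicate 1 or 2 (up to 0.0658). ENO2 and CCNE1 were lost whichever of the 6 arrays was left out (up to 0.194 and 0.271). DUSP5, HSPA1A, H2BC21 and MCOLN1 were lost without any 1 of them but NET47 soluble replicate 3 (up to 0.22, 0.254, 0.255 and 0.261), and AURKB without NET47 soluble replicate 1 or 2 or NET39 soluble replicate 1 or 2 (up to 0.236). In the lists of hepatocyte, skeletal muscle and adipocyte genes, lamina and inner nuclear membrane, tissue-restricted nuclear envelope proteins, nuclear pore, heterochromatin, ribosomal proteins, oxidative phosphorylation, unfolded protein response and amino acid stress 0 members passed by limma's test, where 2815 genes in all had an unadjusted p under 0.05. Under median scaling 20 of the 70 named genes that passed were lost, among them SQLE, THBS2, DUSP1, PAGE1 and ADGRG1. Median values were -0.01 for 22 hepatocyte genes and 0.00 for 23 muscle genes, most of them not detected. The median was -0.21 for 22 amino acid stress genes, 2 of them positive, and -0.15 for 21 heterochromatin genes, 5 of them positive. Over the alternatives these 2 medians reached 0.04 and 0.18. At most 7 amino acid stress genes were called lower in an alternative.

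Set beside the NLS-GFP control, 198 of the 346 genes were called for neither fragment against it. NET47 soluble against NLS-GFP gave 218 genes (1.17%) and NET39 soluble against NLS-GFP gave 27 (0.145%), and both used the same 3 NLS-GFP arrays. Of the 186 genes lower in NET47 soluble than in NET39 soluble cells, 89 were also called lower in NET47 soluble against NLS-GFP, and 12 were called higher in NET39 soluble against NLS-GFP. Of the 160 higher genes the counts were 46 and 2, and 112 were called in neither. The medians against NLS-GFP were -0.55 for NET47 soluble and 0.21 for NET39 soluble over the lower genes, and 0.45 and -0.28 over the higher genes. The NLS-GFP mean lay between the 2 fragments for 270 of the 346 genes. The 346 were picked by the gap between the fragments, which favours both this position and medians of opposite sign. The 270 is therefore no separate evidence, and the same share over all genes is not given here. CXCL8 stood at -3.05 in NET47 soluble and 0.20 in NET39 soluble cells against NLS-GFP, and IL1B at -2.65 and -0.17. PAGE1 was an example of the other kind, at 0.39 in NET47 soluble and 1.32 in NET39 soluble cells.

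The lines with full-length NET47 and NET39, which share no array with the fragments, gave another view of the same pair of proteins. NET47 full-length against NET39 full-length passed at 442 genes (2.37%), 325 higher (1.74%) and 117 lower (0.627%). Of the 346 genes called between the fragments, 78 (22.5%) were also called between the lines (17.6% of the 442), 28 in the same direction and 50 in the opposite one. The opposite calls were mostly genes lower with the NET47 fragment, 39 of 186, of which 10 went the same way. Of the 160 higher genes 18 went the same way and 11 the opposite way. Across the 12018 genes above background the log2 fold changes had a Pearson correlation of -0.12 and a Spearman correlation of -0.14, across genes that are not independent. By the labels, lines and fragments differed in mode of expression as well as in the protein's form, and these cannot be told apart.

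MDK was at least 4.84-fold higher in NET47 full-length than in NET39 full-length cells, where no array was above background (adjusted p = 7.3e-12), but fell with the NET47 fragment, and the interaction passed (adjusted p = 1.6e-14). SERPINB1 (at least 3.04-fold higher between the lines), CAMK1, a calmodulin-dependent kinase (at least 3.31-fold), and MX1 (2.05 on the log2 scale) likewise pointed up between the lines and down between the fragments. ADGRG1, an adhesion receptor, and LYPD1 did so too, at 1.26 and 1.35 between the lines against -1.66 and -1.64 between the fragments. NCALD and TRIML2 pointed the other way, at -1.11 and -0.94 between the lines and 1.27 and 2.01 between the fragments. Genes in the same direction included MACROH2A2 (1.76 between the lines and 1.60 between the fragments), CSPG4 (1.78 and 1.33, with 1 of 4 NET39 full-length arrays and 1 of 3 NET39 soluble arrays above background) and LIPG (at least 2.58-fold between the lines and 1.56 on the log2 scale between the fragments, with 2 of 3 NET39 soluble arrays above background). The difference between the 2 comparisons passed as an interaction at 561 genes (3.01%), and 193 of the 346 fragment genes were among them. The fragment difference that picked the 346 is part of the interaction, so the 193 is no separate evidence. CAMK1, ADGRG1 and LYPD1 were named after their values were seen. With median scaling 173 genes passed between the lines, the interaction count was 203 and the opposite calls were 16.

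**Figure D5:**
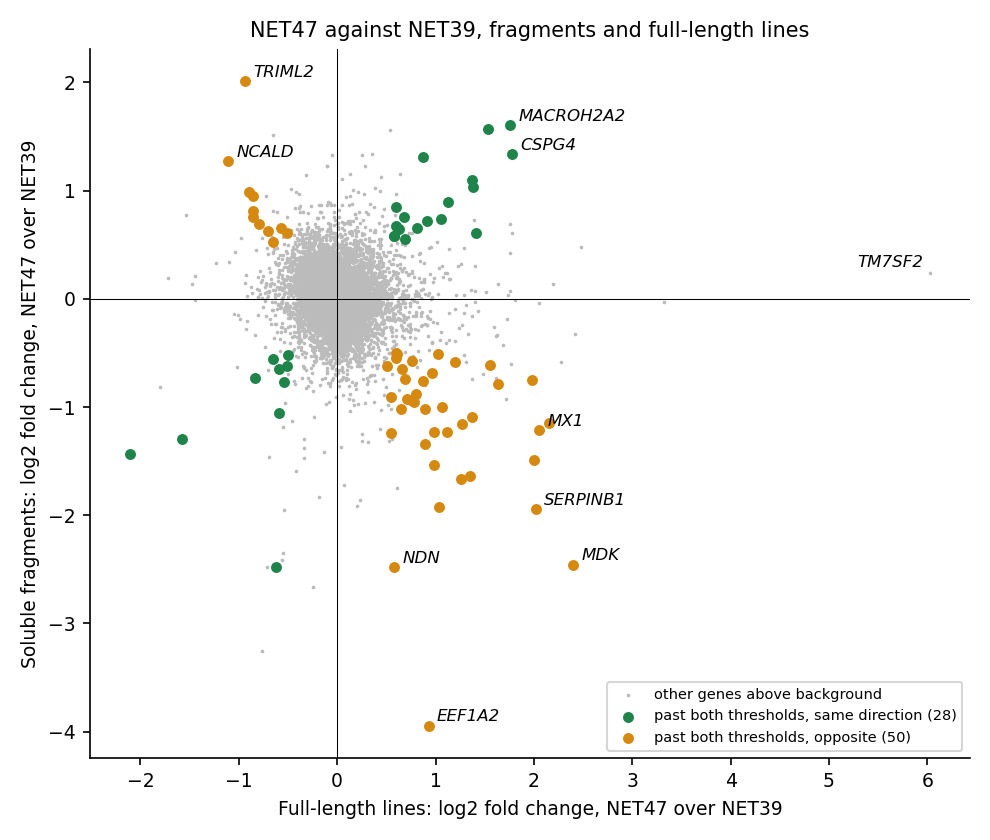
Log2 fold change of NET47 over NET39 between the full-length lines (x axis) and between the soluble fragments (y axis) for genes above background on at least 3 arrays. The 50 genes called in opposite directions lie mostly at the lower right and the 28 called in the same direction at the upper right and lower left, with TM7SF2 at 6.02 between the lines and 0.23 between the fragments. Genes not above background in a group, such as MDK, NDN and SERPINB1, are drawn at their fitted values.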

How the data were processed

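RNA of HT1080 cells was hybridised to 27 Illumina HumanHT-12 v3 arrays. The deposited intensity values are bead summaries per probe with no normalisation, and 1 of them was at or below 0. The authors also deposited log2 values that they had quantile normalised (48802 probes, median 5.88), which ranked probes on each array as the intensities did and were used as an alternative. The authors used limma, of a version that the sources used here do not name. Their control for the fits was the NLS-GFP and untransfected cells.

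Intensities were background corrected with normexp (offset 50), quantile normalised and log2 transformed in limma 3.58.1 (R 4.3.3). GEO's platform annotation gave 1 symbol to 27577 of the 48803 probes, more than 1 to 13 and none to 21213, and 27540 were updated through Entrez identifiers to RefSeq names. A gene was read by the probe brightest on average over all arrays (18665 genes). One model of 8 group means was fitted to the 27 arrays, so that all groups share 1 estimate of the spread (19 residual degrees of freedom). Contrasts were tested with limma's moderated statistic and Benjamini-Hochberg adjustment over all probes, at an adjusted p of 0.05 and a log2 fold change of 0.5. The number of arrays limits the precision. The background of an array was set at the 95th percentile over 598 probes of families expected to be silent (receptors for smell and taste, keratin-associated proteins, defensins). A fold to a group below background is given as a bound ("at least") from that array's background or the gene's own signal, whichever was higher. Calls of 17 higher and 25 lower probes without 1 symbol were not named.

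The rule for naming took the 15 furthest up and the 15 furthest down of the non-overlapping called genes detected on every array of a group, the genes of the targeted proteins and up to 4 members of each list with a call. The comparison and the 43 gene lists were chosen with earlier results of these data known. The fit was tested on simulated data. Same-numbered arrays of the fragments did not deviate together (correlations -0.186, -0.0974 and -0.170), so replicate numbers were not used as pairs. Promoter windows came from RefSeq on GRCh38.p14. The alternatives were median scaling, cyclic loess, no background correction, offset 16, the authors' table, a filter on dim probes, fits to 12 or 6 arrays, a replicate block, array weights, the study's F test, any probe of a gene, and leaving out arrays. Figures were drawn with matplotlib.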

Additional observations from a re-analysis of the deposited data

Results flagged for a closer look

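For 37 of the 60 genes taken by the naming rule, the difference between the soluble fragments, NET47 minus NET39, departed from that between the full-length lines. The departure was tested in limma (interaction, log2 scale, fragments minus lines). Most of the 60 were picked by their fragment difference, which is part of the interaction, so the 37 does not stand apart from that choice. The departure was below 0 for 25 and above 0 for 12. Genes named after their values were seen are not counted, though CAMK1, LYPD1 and ADGRG1 among them also passed. By the labels the lines were stable and the fragments transient, so form and mode of expression cannot be told apart. MDK, SERPINB1, NDN, SCIN, CCL2, HBG1, COCH and IGSF5 were above background on no array of at least 1 of the 4 groups, so their values below are fitted values, not measured sizes, and have no rank among the others. TM7SF2 itself stood at -5.79, which the full-length NET47 line carries at a high level. EEF1A2 stood at -4.87, MDK at -4.86, SERPINB1 at -3.96, MX1 at -3.27, NDN at -3.05 and SBSN at -2.96. EEF1A2, MDK, SERPINB1, MX1, NDN and SBSN were called lower between the fragments and higher between the lines, as were IL11 (-2.46) and THBS2 (-2.42).

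Among secreted signals and their neighbours, CXCL8 stood at -2.49, CCL2 at -2.08 and IL1B at -1.76. In the globin region HBE1 stood at -2.41, OR51B4 at -1.85, HBG2 at -0.71 and HBG1 at -0.69. MAGEA1 stood at -2.36 and PAGE1 at -1.04, both cancer-testis genes. The other falls were SCIN (-2.12), FABP5 (-1.80), FAM20C (-1.65), HSPA1A (-1.57), ATP9A (-1.41), DUSP1 (-1.36) and ENO2 (-0.98).

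On the other side, TRIML2 stood at 2.95 and NCALD at 2.38, both called higher between the fragments and lower between the lines. GRAMD2B stood at 2.16, DUSP5 at 1.41, DMKN at 1.38, HSD11B1 at 1.33, IGSF5 at 1.33 and COCH at 1.08. The cholesterol synthesis genes SC5D (1.46), MSMO1 (0.97) and IDI1 (0.79) and the p53 target TP53INP1 (0.89) completed the group.

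In the NET39 full-length line, a group of 4 arrays, 1 array lay far from the other 3 for 6 of the 60 genes taken by the naming rule. The gap to its neighbour, as a share of the group's range, was 0.916 for DUSP5, 0.878 for SQLE and 0.875 for HBG1. It was 0.859 for NMB, 0.835 for MAGEA1 and 0.831 for CYBRD1. The other groups of 4 arrays are not given here. Chance alone gives about 1 such gap in 20 groups. These arrays do not enter the comparison of the fragments except through the shared estimate of the spread.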

How the results depend on the processing

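Genes past the threshold between the fragments numbered 346. They were 546 in a fit to the 12 transient arrays, 606 in a fit to the 6 arrays compared, and 206 to 444 when 1 array was left out (206 without NET47 soluble replicate 1 and 216 without NET39 soluble replicate 1). Median scaling gave 263, of which 153 were among the 346, and cyclic loess 389, no background correction 383, offset 16 446, the authors' own values 373, the filter on dim probes 394 and array weights 460. With the replicate number as a block in the fit to the 12 transient arrays the count was 582, all 346 were among them, and it changed no call of a named gene. The numbers do not pair the arrays. After seeing the data, NET47 soluble replicate 3 was also set alone against NET39 soluble (100 genes, the lone array assumed to vary like the other groups), and untreated replicates 2 and 4 and NET47 full-length replicate 3 were left out (482). Lists with at least 3 called members numbered 4, against 7 with offset 16, 7 with the filter on dim probes, 12 and 15 in the fits to 12 and 6 arrays, 13 with the block, 9 with array weights, 2 with NET47 soluble replicate 3 alone, 12 without the 3 arrays named above and 2 to 6 with 1 array left out. Genes called in the same direction between the lines numbered 28, against 48 with offset 16, 10 with NET47 soluble replicate 3 alone and 20 to 29 with 1 array left out. The interaction passed at 561 genes, against 203 under median scaling, 251 with NET47 soluble replicate 3 alone and 415 to 564 with 1 array left out. Of 70 named genes that passed, 28 did so in every alternative, 51 were lost in none of the fits with 1 array left out, and none turned direction. PLPP7, which did not pass, turned to -0.00785 without NET39 soluble replicate 3 and to -0.0223 with NET47 soluble replicate 3 alone, and reached 0.11 without NET39 soluble replicate 1. The causes were not tested. Signal near background limits the genes given as bounds, and with 3 arrays a group calls near the threshold turn on single arrays.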
